A study of Mus musculus with 42 samples.

Results

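The liver mRNA of 10 extracellular matrix genes was followed, 10 of the 54446 genes in the count table: Fn1, Fbn1, Eln, Thbs1, Thbs2, Tnc, Postn, Sparc, Efemp1 and Mfap4. They were chosen by name as the fibronectin, elastic fibre and matricellular glycoprotein genes and found in the table by their Ensembl identifiers. The rule uses no measured value, but earlier results of these data were known when the genes were chosen. Bulk RNA sequencing had been performed on the livers of 42 female APOE*3-Leiden mice, 1 library per mouse, taken at week 32. APOE*3-Leiden mice carry a human transgene of a variant apolipoprotein E, which slows the clearance of lipoprotein remnants and makes plasma lipids respond to diet and to statins, and all 3 groups carry it. The 10 chow-fed mice stayed on a maintenance diet. The 16 WTD-fed mice, 8 to 14 weeks old when the diet began, received a Western-type diet (WTD) with 15% cocoa butter, 40.5% sucrose and 1% cholesterol by weight for 3 weeks before week 0 and throughout, with 0.05% sodium cholate added from week 22. The 16 atorvastatin-treated mice received the same diet and, mixed into it from week 0, atorvastatin at 3.0 mg/kg/day, which was raised to 4.5 mg/kg/day at week 5. The WTD-fed groups were formed after the run-in by matching on age, body weight and plasma lipids, whereas the chow-fed mice were a separate reference group, so the diet comparison also spans the cholate and any difference in how the mice were assigned.

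The extracellular matrix is a network of secreted proteins that surrounds cells, and in liver fibrosis it accumulates along the sinusoids and around the portal tracts. Fibronectin, encoded by Fn1, is made by hepatocytes as a plasma protein and by fibroblasts as an insoluble matrix fibre on which other matrix proteins assemble. Elastic fibres consist of a core of elastin (Eln) on a scaffold of fibrillin microfibrils (Fbn1), to which glycoproteins such as microfibril-associated protein 4 (Mfap4) and the fibulin family, with Efemp1 among them, are attached. Thrombospondins (Thbs1, Thbs2), tenascin C (Tnc), periostin (Postn) and SPARC are matricellular proteins, which are deposited in the matrix to alter how cells adhere, migrate and receive growth factors rather than to bear load. In the injured liver, stellate cells and portal fibroblasts are known sources of many of these proteins.

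Promoter windows of 250 bases before the transcription start, from RefSeq on the build GRCm38.p6, were at hand for 6 of the 10 genes: Fbn1, Thbs2, Tnc, Postn, Sparc and Efemp1. Tnc and Postn had 2 windows each, and the one nearest the annotated 5′ end of the gene was used. The windows of Fbn1 and Sparc lie inside the annotated gene, so they precede a start downstream of its 5′ end. The 4 windows that hold either of the short motifs searched for core promoters and for the AP-1 factors are shown, and capitals mark the motif. All 6 genes with a window were higher on WTD, also those whose window is not shown. The Thbs2 window lies at chr17:14694263-14694512 on the minus strand, that of Tnc at chr4:64047016-64047265 on the minus strand, that of Postn at chr3:54360857-54361106 on the plus strand and that of Efemp1 at chr11:28852955-28853204 on the plus strand, and each is written 5′ to 3′ along its gene.
Thbs2: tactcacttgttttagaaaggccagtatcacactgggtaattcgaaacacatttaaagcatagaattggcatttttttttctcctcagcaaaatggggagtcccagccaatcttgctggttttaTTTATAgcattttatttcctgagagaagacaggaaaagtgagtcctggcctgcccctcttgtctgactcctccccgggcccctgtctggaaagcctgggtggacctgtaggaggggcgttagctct
Tnc: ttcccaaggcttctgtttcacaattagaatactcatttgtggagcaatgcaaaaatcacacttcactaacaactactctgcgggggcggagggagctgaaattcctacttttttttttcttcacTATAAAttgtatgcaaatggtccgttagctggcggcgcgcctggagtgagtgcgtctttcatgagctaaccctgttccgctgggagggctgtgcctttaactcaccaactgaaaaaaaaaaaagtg
Postn: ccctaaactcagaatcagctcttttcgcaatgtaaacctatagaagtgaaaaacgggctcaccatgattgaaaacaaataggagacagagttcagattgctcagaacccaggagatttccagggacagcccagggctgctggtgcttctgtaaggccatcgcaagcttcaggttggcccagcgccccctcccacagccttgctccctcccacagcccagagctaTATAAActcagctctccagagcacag
Efemp1: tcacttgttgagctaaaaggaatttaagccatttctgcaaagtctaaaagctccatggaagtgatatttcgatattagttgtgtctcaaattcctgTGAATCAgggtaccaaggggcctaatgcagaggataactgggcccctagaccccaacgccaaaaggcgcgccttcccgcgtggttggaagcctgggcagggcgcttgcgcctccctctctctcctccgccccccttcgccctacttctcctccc
The TATA motif TATAAA, searched on both strands, occurred in 3 of the 6 windows and in 12.4% of the 32851 windows of all genes. In Postn it stood 26 to 21 bases before the start. In Tnc it stood 126 to 121 bases before the start, and in Thbs2 the same letters were at 126 to 121 bases on the other strand, written TTTATA above. The AP-1 motif TGANTCA occurred only in the window of Efemp1 among the 6, at 154 to 148 bases before the start, and in 6.75% of all windows. The SMAD motif CAGAC was in the windows of Thbs2 and Sparc, that is in 2 of 6 against 42.2% of all windows. The TEAD motif GGAATG was in 0 of 6 windows against 12.6% of all, and the serum response factor motif known as the CArG box in 0 of 6 against 1.47%. None of the matches overlapped each other. These are matches of letters in a fixed window and say nothing of binding.

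The libraries held 15661381 to 36224054 read pairs assigned to genes, and the group medians were 20405093.5 (chow), 21095129 (WTD) and 18180048.5 (WTD with atorvastatin). Levels are given as CPM, the counts of a gene scaled to a common library size with edgeR's TMM method. Some libraries missed many weak transcripts. Of the genes that averaged 1 to 2 CPM in a mouse's group, here scaled by total counts only, up to 57.3% had no count in a single library. This share was over 20% in 9 libraries: AZ2, AZ5 and AZ6 on chow, Gen10, Gen11, Gen13, Gen20 and Gen21 on WTD, and Gen29 on WTD with atorvastatin. Results are therefore also given without these 9 mice. Gen20 stood apart in a further way, as its hepatocyte marker sum of 107100 CPM was the highest of the WTD-fed mice and its stellate cell and fibroblast marker sum of 1353 CPM the lowest. None of the 9 hepatocyte markers measured had a median of 0 in any group. All changes were tested with edgeR's quasi-likelihood test over the 15574 genes with enough counts, all 10 genes among them, and an adjusted p (Benjamini-Hochberg over the 15574 genes) under 0.01 was called a change. The 10 genes span abundant and weak transcripts. Per kilobase of exon, Fn1 had the highest median level in all 3 groups, at 126.5 CPM per kb on chow, followed by Sparc at 24.2 and Efemp1 at 7.80. In chow-fed mice the ranges of these 3 genes did not overlap each other or those of the other 7 genes, whose medians lay between 0.374 (Thbs1) and 2.08 (Eln) CPM per kb and whose ranges overlapped with that of the next gene in order. In WTD-fed mice the ranges of Fn1 (79.2 to 191.5 CPM per kb) and Sparc (42.0 to 103.6) did overlap.

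To see which of these genes the diet changed, WTD-fed mice were compared with chow-fed mice. The mRNA of 9 of the 10 genes was higher on WTD, from 2.04-fold in Efemp1 and 2.05-fold in Postn to 9.26-fold in Mfap4, and Fn1 did not pass the threshold. No gene was lower. In bulk liver RNA, more cells that express a gene and more RNA of it per cell cannot be told apart. Over all tested genes, 17.5% were higher and 16.0% were lower in the same comparison. The median log2 fold change of the 10 genes was 1.78, and that of all tested genes was 0.03. Without the 9 libraries that missed over 20% of weak genes, again 9 were higher and 0 lower, against 19.4% and 17.8% of all tested genes.

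**Figure D1:**
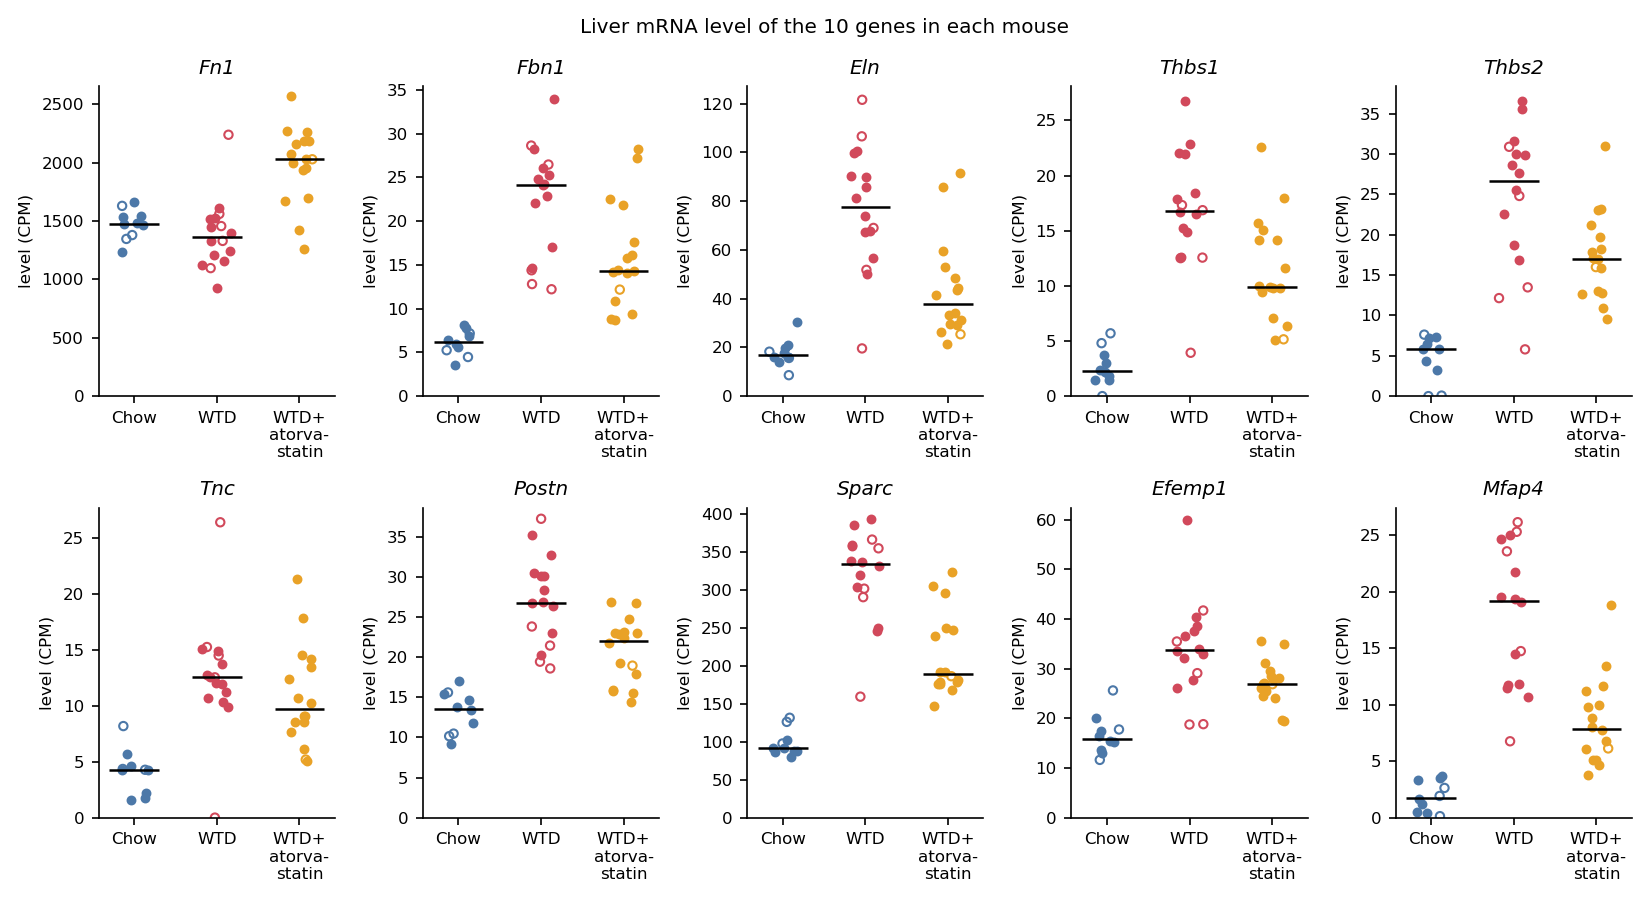
Level of each of the 10 genes in CPM (y axis, linear from 0) in every mouse of the 3 groups (x axis); each point is 1 mouse, black lines are medians, and open points are the 9 libraries that missed over 20% of weakly expressed genes. In every gene but Fn1 the WTD-fed mice lie mostly above the chow-fed mice and the atorvastatin-treated mice lie in between by their medians, whereas Fn1 has its highest median, 2031 CPM, with atorvastatin.

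Among the elastic fibre genes, Eln encodes tropoelastin, the soluble precursor of elastin. On chow its level ranged from 8.59 to 30.4 CPM with a median of 16.9. On WTD the median was 77.7 CPM (19.6 to 121.6). With atorvastatin the median was 37.8 CPM (21.3 to 91.8). All 16 WTD-fed mice lay above the chow median and 15 lay above the highest chow-fed mouse, the exception being Gen20. The log2 fold change between WTD and chow was 2.12 (SE 0.25, adjusted p = 1.9e-09), which is 4.35-fold. The highest chow value was that of mouse AZ1, whose smooth muscle marker sum of 293.4 CPM was far above the chow median of 62.5, and the part of these markers in its Eln level was not tested.

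Fbn1 encodes fibrillin 1, the main protein of the microfibrils. Its level was 3.53 to 8.16 CPM on chow with a median of 6.18, and 12.2 to 33.9 CPM on WTD, where the median was 24.2. The treated mice had 8.73 to 28.2 CPM with a median of 14.4. The lowest WTD-fed mouse was above the highest chow-fed mouse, and so was the lowest atorvastatin-treated mouse. Between WTD and chow Fbn1 rose by 1.87 on the log2 scale (SE 0.19, adjusted p = 1.2e-11), or 3.65-fold.

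Mfap4, whose product binds fibrillin and tropoelastin, had the largest fold change of the 10 genes. On chow it was 0.13 to 3.66 CPM with a median of 1.76, the lowest value being 2 counts in mouse AZ2. On WTD it was 6.76 to 26.2 CPM with a median of 19.2, and with atorvastatin it was 3.75 to 18.8 CPM with a median of 7.89. Neither WTD-fed group overlapped with the chow-fed group. The log2 fold change between WTD and chow was 3.21 (SE 0.33, adjusted p = 2.8e-11). The 3′ end of Mfap4 (chr11:61485431-61488900, plus strand) shares 89 bases with that of Mapk7, a protein kinase gene on the other strand, which had a median of 3.61 CPM on chow and 13.1 CPM on WTD. Whether the counting used the strand is not given in the sources used here, so a share of read pairs over these bases cannot be assigned to either gene.

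Efemp1 encodes fibulin 3, a glycoprotein of elastic fibres and basement membranes. Its range was 11.6 to 25.6 CPM on chow with a median of 15.9. On WTD it was 18.7 to 60.0 CPM with a median of 33.7, and with atorvastatin it was 19.4 to 35.5 CPM with a median of 27.0. All WTD-fed mice lay above the chow median and 14 of 16 above the highest chow-fed mouse. The rise of 1.03 on the log2 scale (SE 0.14, adjusted p = 8.7e-09) was among the smallest of the 9 genes, together with that of Postn.

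Of the matricellular genes, Thbs1 and Thbs2 encode thrombospondins, of which thrombospondin 1 is known as an activator of latent transforming growth factor beta. Thbs1 was 0 to 5.70 CPM on chow with a median of 2.27, 3.93 to 26.8 CPM on WTD with a median of 16.8, and 5.07 to 22.6 CPM with atorvastatin with a median of 9.91. Thbs2 was 0 to 7.62 CPM on chow with a median of 5.80, 5.79 to 36.6 CPM on WTD with a median of 26.6, and 9.59 to 31.0 CPM with atorvastatin with a median of 17.0. The zeros were single mice, AZ2 for Thbs1 and AZ5 for Thbs2, both among the 9 libraries that missed over 20% of weak genes, and AZ2 had 1 count of Thbs2. In each gene 15 of 16 WTD-fed mice lay above the highest chow-fed mouse and the lowest WTD-fed mouse was Gen20. Thbs1 rose by 2.65 on the log2 scale (SE 0.32, adjusted p = 2.4e-09) and Thbs2 rose by 2.35 (SE 0.37, adjusted p = 1.1e-06), or 6.29-fold and 5.09-fold.

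Tnc encodes tenascin C, a large glycoprotein that is scarce in healthy adult tissue and appears in wounds. It was 1.55 to 8.19 CPM on chow with a median of 4.28, 0 to 26.4 CPM on WTD with a median of 12.6, and 5.11 to 21.4 CPM with atorvastatin with a median of 9.68. The highest and the lowest WTD values, in mice Gen21 and Gen11, both came from libraries that missed over 20% of weak genes, and all WTD-fed mice except Gen11 were above the highest chow-fed mouse. The log2 fold change between WTD and chow was 1.63 (SE 0.34, adjusted p = 0.00010), with the largest standard error relative to its size of the 9 genes that rose.

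Postn encodes periostin, which binds collagen and integrins. It was 9.18 to 17.0 CPM on chow with a median of 13.6, 18.6 to 37.3 CPM on WTD with a median of 26.8, and 14.5 to 26.9 CPM with atorvastatin with a median of 22.1. The chow-fed and WTD-fed groups did not overlap. Postn rose by 1.04 on the log2 scale (SE 0.13, adjusted p = 1.2e-09), or 2.05-fold.

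Sparc encodes a collagen-binding glycoprotein and had the highest level per kilobase of the matricellular genes of the set. It was 80.4 to 131.4 CPM on chow with a median of 91.6, 159.2 to 392.5 CPM on WTD with a median of 333.4, and 147.5 to 323.6 CPM with atorvastatin with a median of 188.7. Both WTD-fed groups lay entirely above the chow-fed mice, and the lowest value on WTD was that of Gen20. Its log2 fold change between WTD and chow, 1.70 (SE 0.13, adjusted p = 8.2e-16), had the smallest adjusted p of the 10 genes, and it corresponds to 3.24-fold.

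Fn1 was the exception. It was 1234 to 1659 CPM on chow with a median of 1478, 925 to 2238 CPM on WTD with a median of 1366, and 1258 to 2573 CPM with atorvastatin with a median of 2031. The WTD-fed mice spread to both sides of the chow-fed mice, with 5 below the lowest of them and 1, Gen20, above the highest. The log2 fold change between WTD and chow was -0.09 (SE 0.10, adjusted p = 0.48). When libraries were scaled by total counts only, it was 0.21 (adjusted p = 0.018), a setting that moved the median of all tested genes to 0.34.

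In all, 4 of the 10 genes (Fbn1, Postn, Sparc and Mfap4) had no overlap between WTD-fed and chow-fed mice, with WTD higher, against 3.40% of all tested genes. Without the 9 libraries that missed over 20% of weak genes, the 9 genes that rose had none, against 8.51% of all tested genes.

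**Figure D2:**
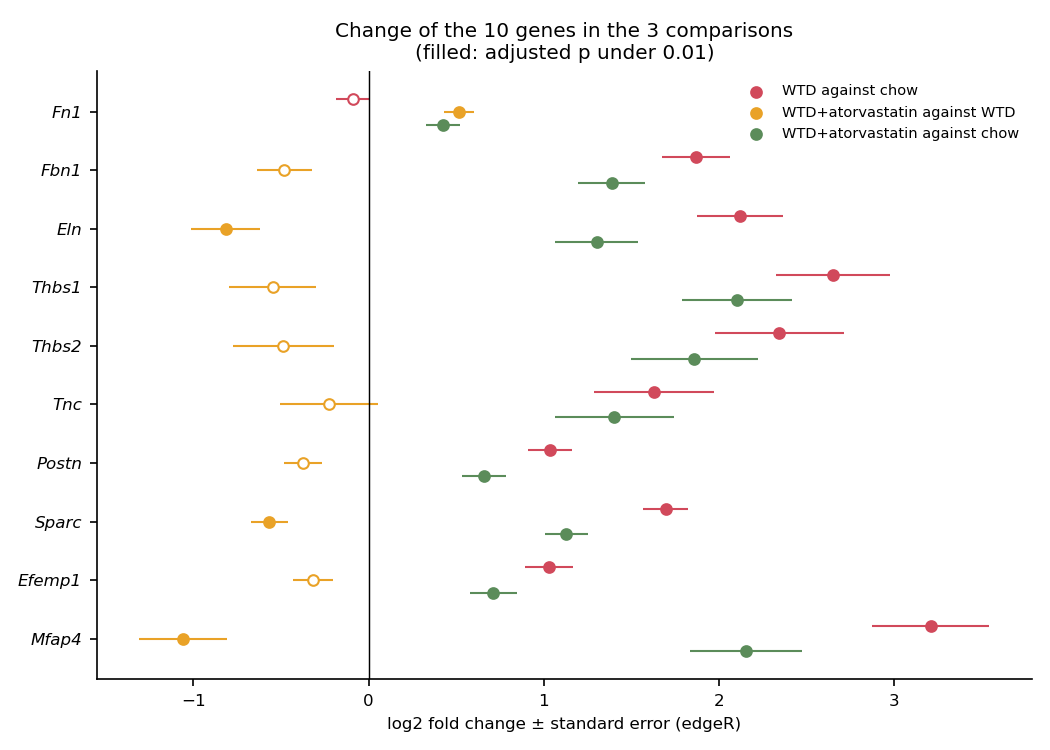
Log2 fold change with its standard error from edgeR (x axis) for each of the 10 genes (y axis) between WTD and chow, WTD with atorvastatin and WTD, and WTD with atorvastatin and chow; filled points have an adjusted p under 0.01. Fn1 is the only gene near 0 for the diet (-0.09) and the only one above 0 for atorvastatin against WTD (0.52); the other 9 genes lie between 1.03 and 3.21 for the diet and between -1.06 and -0.23 for atorvastatin.

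The effect of atorvastatin was examined by comparing the treated with the untreated WTD-fed mice. Eln, Sparc and Mfap4 were lower with atorvastatin, Fn1 was higher, and the other 6 genes, which had fold changes below 1, did not pass the threshold. Over all tested genes, 2.26% were lower and 4.84% were higher. The median log2 fold change of the 10 genes was -0.48, and that of all tested genes was 0.00. Mfap4 fell by 1.06 on the log2 scale (SE 0.25, adjusted p = 0.0026), to 0.48 times the WTD level, and all 16 treated mice lay below the WTD median, 6 of them below the lowest WTD-fed mouse. Eln fell by 0.82 (SE 0.20, adjusted p = 0.0035), and 14 of 16 treated mice were below the WTD median. Sparc fell by 0.57 (SE 0.10, adjusted p = 0.00015), with all 16 treated mice below the WTD median. In none of the 10 genes were the treated and untreated groups separate, against 0.00642% of all tested genes separate with atorvastatin higher and 0.00% lower, and without the 9 libraries that captured few weak genes the groups again overlapped in each of the 10.

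The remaining 6 genes had lower medians with atorvastatin but a smaller or less even difference. Postn had a log2 fold change of -0.37 (SE 0.11, adjusted p = 0.012) and 15 of 16 treated mice below the WTD median. It lay at the threshold, and 9 of the 42 refits without a single mouse called it. Postn was also called lower with DESeq2, with limma-voom and with RLE, upper-quartile or total-count scaling. The same held with at least 10 counts in every mouse and when only the 2 groups compared were fitted. Fbn1 had -0.48 (SE 0.16, adjusted p = 0.031) with 14 of 16 treated mice below the WTD median, and it was called when the treated mouse Gen25, its highest value in that group, was left out (adjusted p = 0.0095). Efemp1 had -0.32 (SE 0.11, adjusted p = 0.056). Thbs1 had -0.55 (SE 0.25, adjusted p = 0.155) and Thbs2 -0.49 (SE 0.29, adjusted p = 0.32), although 14 and 15 of 16 treated mice lay below the WTD median. Tnc, at -0.23 (SE 0.28, adjusted p = 0.70), had the smallest difference, and 11 of 16 treated mice were below the WTD median. Without the 9 libraries that missed over 20% of weak genes, 7 genes were lower and Fn1 remained higher, against 3.89% lower and 6.65% higher of all tested genes. The genes added were Thbs1 (adjusted p = 0.0066), Thbs2 (adjusted p = 0.0016), Postn (adjusted p = 0.0024) and Efemp1 (adjusted p = 0.0031).

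Fn1 rose with atorvastatin by 0.52 on the log2 scale (SE 0.09, adjusted p = 4.5e-05), or 1.43-fold. Of the treated mice, 15 of 16 were above the WTD median and 14 of 16 above the highest chow-fed mouse, the lowest being Gen28 and Gen22. The treated and untreated groups overlapped, also without the 9 libraries that missed over 20% of weak genes. The hepatocyte marker genes moved in the same direction in this comparison. Of the 9 measured hepatocyte markers, 6 were higher with atorvastatin and 0 lower, against 4.84% and 2.26% of all tested genes. Their summed level was 53840 to 107100 CPM on WTD (median 68820) and 63890 to 131000 CPM with atorvastatin (median 109200). Between WTD and chow, however, all 9 hepatocyte markers were lower, against 16.0% of all tested genes, from a median sum of 124600 CPM on chow, while Fn1 did not pass the threshold. The part of hepatocyte content in the level of Fn1 was not tested.

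The treated mice were also set beside the chow-fed mice. All 10 genes were higher with atorvastatin than on chow, against 14.2% of all tested genes. Their median log2 fold change was 1.35, and that of all tested genes was 0.04. Mfap4 was 2.15 higher on the log2 scale (SE 0.32, adjusted p = 3.7e-07), Thbs1 was 2.10 higher (SE 0.32, adjusted p = 5.4e-07) and Sparc was 1.13 higher (SE 0.12, adjusted p = 2.3e-10). Fn1 was 0.43 higher (SE 0.10, adjusted p = 0.00050), the smallest difference of the set, followed by Postn at 0.66 and Efemp1 at 0.71. Fbn1, Thbs2, Sparc and Mfap4 had no overlap between these groups, against 2.88% of all tested genes. The comparisons share mice, so their values for a gene are not independent of each other.

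Markers of other cell types were followed beside the 10 genes. For comparison, 17.5% of all tested genes were higher and 16.0% lower on WTD than on chow. With atorvastatin 4.84% were higher and 2.26% lower than on WTD. Of 15 markers of stellate cells and fibroblasts, none of them a member of the set, 8 were higher on WTD than on chow and 0 lower, and their sum was 510.5 to 835 CPM on chow and 1353 to 2876 CPM on WTD. These 8 were Pdgfrb, Pdgfra, Col1a1, Col1a2, Col3a1, Dcn, Lum and Hand2, whereas Reln (log2 fold change 0.14, adjusted p = 0.35) and Colec11 (0.20, adjusted p = 0.18), markers of stellate cells, did not pass. Acta2, a marker of activated stellate cells, had medians of 9.40 CPM on chow and 7.11 CPM on WTD (log2 fold change -0.50, adjusted p = 0.13). With atorvastatin 5 of the 15 were lower than on WTD and 1, Reln, was higher, and the sum was 1231 to 2670 CPM. Of 9 macrophage markers, 8 were higher on WTD, and 5 were lower and 1 higher with atorvastatin, with sums of 302.8 to 525 CPM on chow, 1738 to 2865 on WTD and 1381 to 2175 with atorvastatin. All 6 cholangiocyte markers were higher on WTD (19.1 to 49.0 CPM on chow, 34.1 to 151.8 on WTD), and none passed with atorvastatin (44.7 to 122.4). Of 8 markers of portal fibroblasts and mesothelium, 4 were higher on WTD and 1 was lower with atorvastatin, with sums of 11.7 to 33.1, 25.7 to 64.9 and 22.8 to 42.0 CPM. Gli1 among them had a median of 0 on chow. Smooth muscle had 1 higher and 1 lower of 5 tested markers on WTD and 0 with atorvastatin (sums of 50.3 to 293.4, 59.9 to 101.4 and 60.5 to 89.0 CPM), and endothelium had 2 higher and 3 lower of 8 on WTD and 3 higher with atorvastatin (307 to 463, 212.5 to 436 and 302 to 438 CPM). None of 3 tested platelet and of 6 lymphocyte markers passed in either comparison, the platelet genes Gp9 and Gp1bb had medians of 0 on chow and on WTD, and the sums of both lists were at most 42.0 CPM in any mouse. The part of these cell types in the levels of the 10 genes was not tested.

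Whether the genes varied together among mice on the same diet was examined within each group, since pooled groups would form clusters. The family held 195 relations of log2 CPM (45 pairs of genes and 20 of a gene with a marker sum, in 3 groups), with permutation tests of 100000 permutations and Benjamini-Hochberg adjustment at 0.05. Of the 45 pairs, 1 passed in chow-fed mice, 18 in WTD-fed and 18 in atorvastatin-treated mice. The number on chow comes from 10 mice and is not comparable with those from 16. Without the 2 mice farthest from the median of 1 gene of the pair, 0, 5 and 6 pairs passed. Without the 9 libraries, 0, 4 and 16 passed. These last numbers come from 7, 11 and 15 mice, so they are not comparable between groups either. In WTD-fed mice Fbn1 and Eln rose and fell together (Pearson r = 0.80, Spearman rho = 0.84, permutation p = 3e-05, adjusted p = 0.00097), and r was 0.75 without the 2 mice farthest from the median of Fbn1. Thbs2 and Sparc had r = 0.89 (rho = 0.79, permutation p = 0.00017, adjusted p = 0.0021) and 0.77 without the 2 farthest mice. Thbs1 and Thbs2 had r = 0.84 (rho = 0.59, permutation p = 0.00037, adjusted p = 0.0030), which was 0.68 without the 2 farthest mice (permutation p = 0.0071) and 0.32 without the 9 libraries (n = 11, permutation p = 0.33). In atorvastatin-treated mice Sparc went with Tnc (r = 0.88, rho = 0.83, permutation p = 2e-05, adjusted p = 0.00097) and with Mfap4 (r = 0.83, rho = 0.74, permutation p = 6e-05, adjusted p = 0.0011), with 0.82 in both cases without the 2 farthest mice. The only pair of Postn that passed was with Tnc in WTD-fed mice (r = 0.49, rho = 0.27, permutation p = 0.013, adjusted p = 0.043), and r was -0.05 without the 2 farthest mice. With atorvastatin the same pair went the other way, from r = 0.26 (adjusted p = 0.47) to 0.67 without the 2 farthest mice (permutation p = 0.0086).

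**Figure D3:**
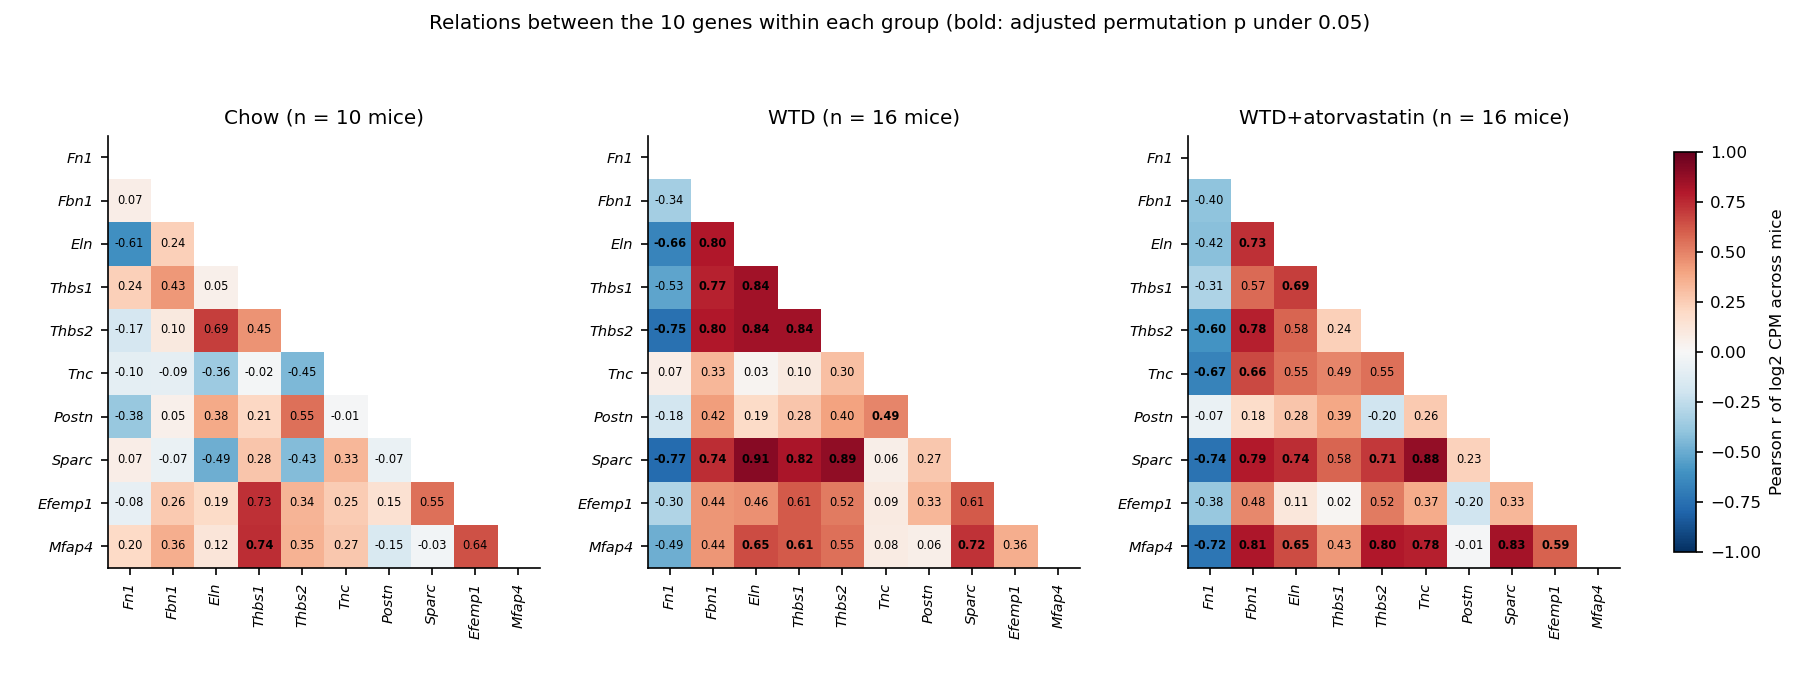
Pearson r of log2 CPM across mice for each pair of the 10 genes (both axes) within each group; bold values have an adjusted permutation p under 0.05. Fn1 is negatively related to Sparc in both WTD-fed groups (-0.77 and -0.74), Postn has 1 bold value (0.49, with Tnc on WTD), and on chow the single bold value is that of Thbs1 with Mfap4 (0.74).

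The pairs of Fn1 that passed were negative, 3 of 9 on WTD (with Eln, Thbs2 and Sparc), 4 of 9 with atorvastatin (with Thbs2, Tnc, Sparc and Mfap4) and 0 of 9 on chow. With Sparc it had r = -0.77 on WTD (rho = -0.59, permutation p = 0.00099, adjusted p = 0.0062), but it rests in part on single mice, as r was -0.42 without the 2 mice farthest from the median of Fn1 (permutation p = 0.14) and -0.63 without the libraries that captured few weak genes (n = 11, permutation p = 0.039, adjusted p = 0.13). With atorvastatin it was -0.74 (rho = -0.77, permutation p = 0.0013, adjusted p = 0.0067), and -0.56 without the 2 farthest mice (permutation p = 0.037). None of these pairs of Fn1 passed without the 2 farthest mice, as every passing pair was then positive. On WTD r was then -0.30 with Eln and -0.42 with Thbs2. With atorvastatin r was -0.19 with Thbs2, -0.48 with Tnc and -0.43 with Mfap4. After the 9 libraries were left out, no pair of Fn1 passed on WTD. The pairs with Tnc (r = -0.72), Sparc (-0.74) and Mfap4 (-0.73) still passed with atorvastatin, but not that with Thbs2 (-0.59).

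The stellate cell and fibroblast marker sum passed with 7 of the 10 genes on WTD and with 7 with atorvastatin, all positive. On chow it passed with Thbs1 and Efemp1. Without the 9 libraries only Fbn1, Eln and Sparc passed on WTD (adjusted p = 0.028, 0.034 and 0.027). No gene then passed on chow, while the 7 with atorvastatin passed again. Without the 2 farthest mice r on WTD was 0.40 with Efemp1 and 0.39 with Mfap4 (permutation p = 0.16 and 0.17). With Sparc r was 0.90 on WTD (rho = 0.87, permutation p = 3e-05, adjusted p = 0.00097) and 0.94 with atorvastatin (rho = 0.82, permutation p = 1e-05, the smallest these permutations can give, adjusted p = 0.00097), and without the 2 farthest mice it was 0.73 and 0.89. With Fbn1 it was 0.85 and 0.84, and with Eln 0.85 and 0.87. Postn passed in neither group (r = 0.47, adjusted p = 0.14, and r = 0.30, adjusted p = 0.42). Without the 2 farthest mice its r was 0.66 on WTD (permutation p = 0.011) and -0.06 with atorvastatin (permutation p = 0.83). Since Col1a1, Col1a2 and Col3a1 made up 55.8% of the sum in the median WTD-fed mouse, the sum was also taken over its other 12 markers, a choice made after seeing the data. In that family of 30 relations, 5 of 10 genes passed on WTD (Fbn1, Eln, Thbs1, Thbs2 and Sparc) and 4 of 10 with atorvastatin (Fbn1, Eln, Thbs1 and Sparc). The r of Sparc was 0.76 on WTD (rho = 0.89, permutation p = 0.00021, adjusted p = 0.0021) and 0.59 with atorvastatin (rho = 0.46, permutation p = 0.013, adjusted p = 0.038).

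**Figure D4:**
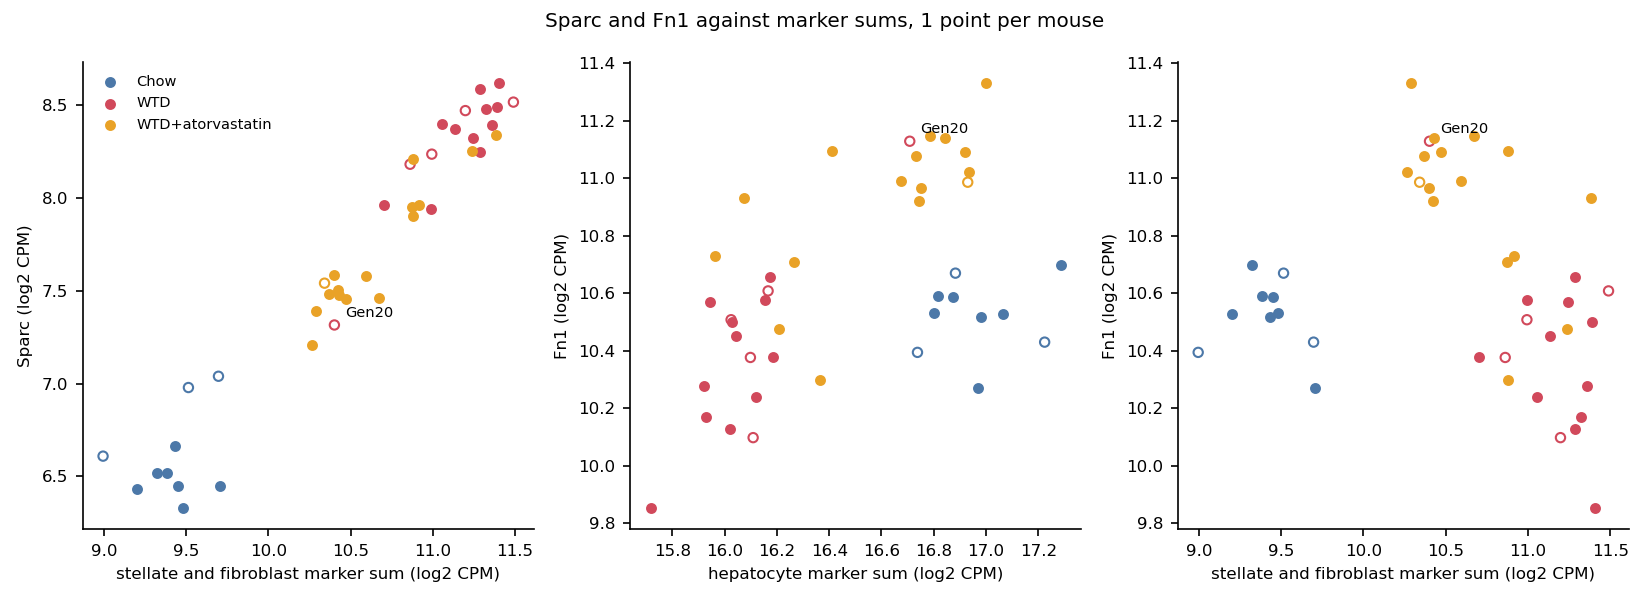
Sparc against the stellate cell and fibroblast marker sum (left), and Fn1 against the hepatocyte marker sum (middle) and against the stellate cell and fibroblast marker sum (right), all in log2 CPM with 1 point per mouse, colours for the groups and open points for the 9 libraries that missed over 20% of weak genes. Sparc climbs with the sum within both WTD-fed groups (r = 0.90 and 0.94), and the WTD-fed mouse Gen20 lies among the treated mice in each panel.

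With the hepatocyte marker sum, Fn1 had a positive relation with atorvastatin (r = 0.66, rho = 0.69, permutation p = 0.0051, adjusted p = 0.020), and r was 0.77 without the 2 farthest mice. On WTD r was 0.80 (rho = 0.59, permutation p = 0.00081, adjusted p = 0.0053), but 0.32 without the 2 farthest mice (permutation p = 0.26) and 0.70 without the libraries that captured few weak genes (n = 11, permutation p = 0.017, adjusted p = 0.079), so the call rests on those mice. With atorvastatin 5 of the 10 genes passed with a negative relation to the same sum. Sparc had r = -0.90 (rho = -0.90, permutation p = 4e-05, adjusted p = 0.0011) and -0.93 without the 2 farthest mice. The others were Tnc (-0.83), Eln (-0.77), Mfap4 (-0.73) and Fbn1 (-0.61). On WTD 3 passed as negative, Thbs2 (-0.79), Sparc (-0.84) and Mfap4 (-0.68). Without the 2 farthest mice their r was -0.37, -0.46 and -0.52 (permutation p = 0.19, 0.1 and 0.058). The treated mice were uneven in this sum. Gen22 to Gen25, Gen28 and Gen36 had 63890 to 87230 CPM, and the other treated mice had 104600 to 131000 CPM. Sparc was 239.1 to 323.6 CPM in the former and 147.5 to 191.5 CPM in the latter. The part of this split in the relations with atorvastatin was not tested. CPM are relative to the scaled library size, and the part of this scaling in these relations was not tested.

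The 3 genes most like each member were found by Pearson r of log2 CPM over the 42 mice after each group's mean was subtracted, as a description across all tested genes. For Sparc they were Col3a1 (r = 0.88), Anxa2 (0.87) and Ccdc80 (0.86). For Fbn1 they were Col3a1 (0.78), Col4a1 (0.74) and Col6a3 (0.73), and for Eln they were Col6a3 (0.82), Col5a2 (0.80) and Col1a2 (0.80). Collagen genes stood next to these elastic fibre genes, and without the 9 libraries their r was 0.70 to 0.83. Mfap4 was most like Rasal1 (0.79), F2r (0.78) and Smoc2 (0.77). Fn1 was most like Iqgap2 (0.86), Col18a1 (0.86) and Ndst1 (0.85), each at 0.84 to 0.86 without the 9 libraries. The likenesses of Thbs1, Thbs2 and Tnc fell without those libraries. The nearest gene to Thbs1 was Clmp, at 0.89 with all mice and 0.57 without the 9. Adcy3, the nearest to Thbs2, had 0.94 and 0.63, and Fkbp14, the nearest to Tnc, had 0.86 and -0.01. Efemp1 was most like Scara3, at 0.77 and 0.57, and the highest r of Postn was only 0.62, with D5Ertd615e.

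Other genes of the elastic fibre moved with the set. Of 20 listed genes of elastic fibres and microfibrils, 18 were tested. Of these, 17 were higher on WTD than on chow and 0 were lower, against 17.5% and 16.0% of all tested genes. Their median log2 fold change was 1.58. Emilin1, a glycoprotein between elastin and microfibrils, had medians of 40.9 CPM on chow and 114.0 CPM on WTD and rose by 1.40 (SE 0.11, adjusted p = 6.8e-15). Ltbp2, a microfibril protein of the latent transforming growth factor beta binding family, had medians of 3.08 and 58.4 CPM and rose by 4.30 (SE 0.40, adjusted p = 1.1e-11). Ltbp3, of the same family, rose by 1.84 (SE 0.19, adjusted p = 2.1e-11). With atorvastatin 4 of the 18 were lower than on WTD and none was higher, against 2.26% and 4.84% of all tested genes, and the median was -0.38. Ltbp2 fell by 1.51 (SE 0.29, adjusted p = 0.00029) to a median of 14.9 CPM, and Loxl1, which crosslinks elastin, fell by 0.92 (SE 0.22, adjusted p = 0.0031). Fbn2, the fibrillin best known from development, had a median of 0 CPM on chow, 6.82 CPM on WTD and 1.49 CPM with atorvastatin, and fell by 2.00 between the last 2 groups (SE 0.54, adjusted p = 0.0083). Without the 9 libraries 8 of the 18 were lower with atorvastatin, against 3.89% of all tested genes.

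Matricellular and adhesive glycoproteins outside the set went both ways. Of 25 listed, 21 were tested, with 11 higher and 3 lower on WTD, against 17.5% and 16.0% of all tested genes. The median log2 fold change was 0.92. Igfbp7 rose by 1.44 (SE 0.11, adjusted p = 9.5e-16) and Tgfbi, an integrin-binding matrix protein, rose by 1.06 (SE 0.09, adjusted p = 1.2e-14). Vtn, which encodes the hepatocyte product vitronectin, a plasma adhesive protein like fibronectin, fell by 0.76 (SE 0.06, adjusted p = 1.1e-14), from a median of 3319 CPM on chow to 1894 CPM. With atorvastatin 2 of the 21 were higher and 4 were lower, against 4.84% and 2.26% of all tested genes, and the median was -0.38. Spp1, which encodes osteopontin, fell by 0.79 (SE 0.16, adjusted p = 0.00065), from a median of 510.5 to 265.4 CPM. Sparcl1, the closest relative of Sparc, fell by 0.87 (SE 0.19, adjusted p = 0.00096), and Igfbp7 fell by 0.40 (SE 0.09, adjusted p = 0.0017). Vtn, at a median of 2295 CPM with atorvastatin, differed from WTD by 0.19 on the log2 scale (adjusted p = 0.015).

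**Figure D5:**
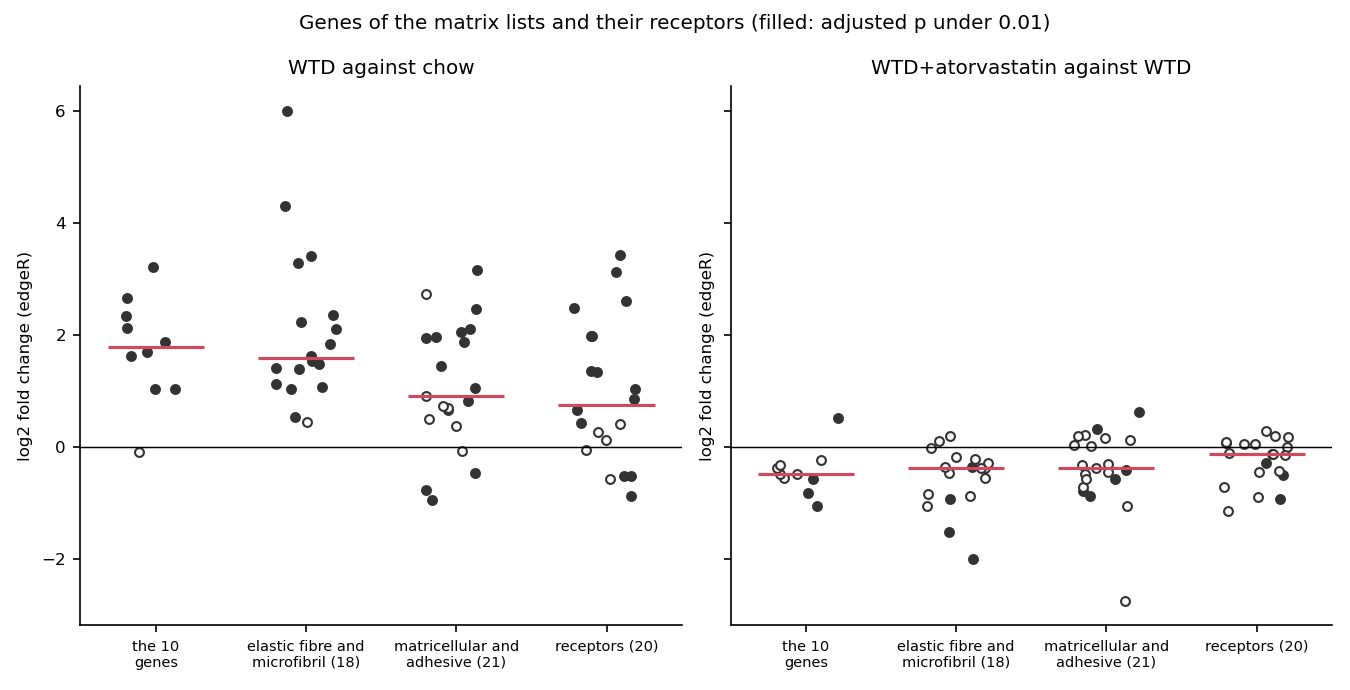
Log2 fold changes (y axis) of the 10 genes and of the tested genes of the 3 related lists (x axis, number tested in brackets) between WTD and chow (left) and between WTD with atorvastatin and WTD (right); each point is a gene, filled when its adjusted p is under 0.01, and red lines are medians. The medians on WTD are 1.78, 1.58, 0.92 and 0.76 and with atorvastatin -0.48, -0.38, -0.38 and -0.12.

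The receptors through which cells bind these proteins are mainly integrins and syndecans. Of 22 listed receptor genes, 20 were tested, with 12 higher and 3 lower on WTD, against 17.5% and 16.0% of all tested genes. The median log2 fold change was 0.76. Itga9, an integrin subunit that binds tenascin C and osteopontin, rose by 1.36 (SE 0.09, adjusted p = 9.5e-18). Itgb5, a vitronectin receptor subunit, rose by 0.85 (SE 0.07, adjusted p = 9.4e-15), and Itgax, a subunit of myeloid cells, rose by 3.13 (SE 0.24, adjusted p = 2.6e-14). The 3 lower ones were the syndecans Sdc1, Sdc2 and Sdc4. With atorvastatin 3 of the 20 were lower and none was higher, against 2.26% and 4.84% of all tested genes, and the median was -0.12. Anxa2, a cell surface protein that binds tenascin C, fell by 0.94 (SE 0.16, adjusted p = 9.4e-05), Itgav, which pairs with Itgb5, fell by 0.50 (SE 0.10, adjusted p = 0.00050), and Itgb5 fell by 0.28 (SE 0.06, adjusted p = 0.00069).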

How the data were processed

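Liver mRNA was measured by strand-specific, paired-end sequencing of polyadenylated RNA in 42 mice of 3 groups, 1 library per mouse. The authors aligned reads with STAR 2.5.3a to GRCm38 (GENCODE vM19) and deposited counts per gene from HTSeq-count 0.6.1p1, unnormalized. The strand setting of the counting is not given in the sources used here. Of counted read pairs, 2.00% to 2.78% per mouse lay in no gene and 5.43% to 6.57% were ambiguous, and these lines were left out of totals and tests. No column belonged to another sample.

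Symbols, positions and exon lengths came from GENCODE vM21, in which 54409 of 54446 identifiers were found. edgeR 4.0.16 (R 4.3.3) was used with its filter filterByExpr (at least 10 counts, at least 15 in total), TMM scaling and the robust quasi-likelihood test on all 42 mice in 1 fit, without covariates, since the labels give no batch. P values were adjusted by Benjamini-Hochberg over the 15574 tested genes and called under 0.01, the study's threshold. Log2 CPM in relations used a prior count of 2. The code was tested on simulated data.

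The 10 genes, the related lists and the markers were chosen with earlier results of these data known. Named were all 10 genes, the 3 related genes with the smallest p per list in each of the 2 main comparisons, and the 3 most alike genes per member, and syndecans and markers beyond this rule were chosen after their values were seen. Alternatives were DESeq2 1.42.0, limma-voom (limma 3.58.1), other scalings, filters and thresholds, fewer mice and the marker sum without collagens, the last chosen after seeing the data. Figures used matplotlib.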

Additional observations from a re-analysis of the deposited data

How the results depend on the processing

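The count of 9 of 10 genes higher on WTD than on chow stayed at 9 under each alternative but one, and leaving out each mouse in turn gave 9 to 9. With at least 10 counts in every mouse it was 5, because Thbs1, Thbs2, Tnc and Mfap4 were then not tested, and the count against chow with atorvastatin was 6 instead of 10 for the same reason. That count was 7 when the log2 fold change also had to reach 1 in size, as Fn1, Postn and Efemp1 were below it. When each mouse was left out it was 10 to 10. The count between atorvastatin and WTD, 4 (1 higher, 3 lower), depended most on the setting. It was 7 with total counts only, 8 without the 9 libraries that missed over 20% of weak genes, 9 with limma-voom and quality weights, 1 when the log2 fold change also had to reach 1 in size, and 4 to 6 when each mouse was left out. Postn was called without any one of AZ2, Gen10, Gen11, Gen13, Gen15, Gen20, Gen22, Gen25 and Gen36 (adjusted p = 0.0061 to 0.026 over the 42 fits). Of the other alternatives, only the fit with no filter and the fold change limit did not call it. The sign of each of the 10 genes held in the 3 comparisons under the alternatives run, except Fn1 between WTD and chow, which was 0.21 with total counts only (adjusted p = 0.018). That setting moved the median of all genes to 0.34, -0.16 and 0.20. Over all genes between atorvastatin and WTD, 754 were higher and 352 lower. The split was 582 and 479 with RLE, 645 and 430 with the upper quartile, 645 and 515 with at least 10 counts in every mouse, 330 and 1022 with total counts only, 719 and 642 with only the groups compared, 712 and 688 with DESeq2, 1835 and 1310 with limma-voom, 1050 and 614 without the 9 libraries, 1283 and 738 at an adjusted p under 0.05 and 66 and 34 when the log2 fold change had to reach 1. Between WTD and chow, 2729 and 2495 became 5148 and 1101 with total counts only and 1610 and 541 with the fold change limit, and for atorvastatin against chow 2219 and 1674 became 3241 and 987, and 1055 and 233. Of the 63 relations that passed, 24 did without the 2 farthest mice and 38 without the 9 libraries. The cause of these moves was not tested. No paired analysis was possible because each mouse belongs to 1 group and its number only names it. Limits are the missing weak transcripts in 9 libraries and the chow group of 10.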
